A study of Arabidopsis thaliana with 8 samples.

Results

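The 10 *JAZ* genes described here (*JAZ1*, *JAZ2*, *JAZ3*, *JAZ5*, *JAZ6*, *JAZ7*, *JAZ8*, *JAZ9*, *JAZ10* and *JAZ12*) encode jasmonate ZIM-domain repressors of *Arabidopsis thaliana*. They were taken as the rows of the count tables whose gene symbol is one of these names or a synonym, a rule that uses the name alone. All 10 were found among 33028 gene rows, *JAZ2* under the name *TIFY10B* and *JAZ9* under the name *TIFY7*.

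JAZ proteins hold the jasmonate response off. They sit on MYC transcription factors at jasmonate-responsive promoters and recruit the corepressor TOPLESS through the adaptor NINJA. When jasmonoyl-isoleucine builds up after wounding or attack, it joins JAZ proteins to the F-box receptor COI1, and the JAZ proteins are ubiquitinated and degraded. MYC factors then switch on defence genes and also most *JAZ* genes, which closes a negative feedback loop, so that *JAZ* transcripts serve as a common readout of jasmonate signalling in seedlings.

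The study asked how overexpressors (OXs) of *HRE1α* and *HRE1β* differ from each other and from WT. These are splicing variants of *HRE1*, a group VII ERF transcription factor of the low-oxygen response. The series also holds *AtRH17* OXs, a line named for a DEAD-box RNA helicase. All 4 groups had the Columbia (Col-0) background. Whole seedlings were collected without further treatment after growth at 22 °C in short days (8 h light, 16 h dark). The labels give 14 days after germination and 1.5% sucrose in the medium. For both, the methods of the study give another value. The groups, with 2 libraries each, were *HRE1α* OX (a line of an earlier study), *HRE1β* OX (the full open reading frame in a binary vector), *AtRH17* OX (a line that the methods of the study do not describe) and WT. HRE1 transgenic plants were homozygous, and neither the promoter driving the transgenes in the seedlings nor whether the 2 libraries of a group came from separate lines or plants is given in the sources used here.

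QuantSeq, the assay used, samples a polyadenylated transcript by a fragment at its 3′ end, so a count follows the number of transcripts and is not scaled by gene length. Library totals lay between 25657217 and 30606058 counts, and levels are given as CPM, counts per 1e6 of the library with TMM scaling. *HRE1* had 4424 and 5397 counts in *HRE1α* OX, 916 and 1057 in libraries labelled *HRE1β* OX, and 1401 and 1115 in WT. Its log2 fold change was 2.05 in *HRE1α* OX (SE 0.116, adjusted p = 2.1e-10, edgeR) and −0.37 in libraries labelled *HRE1β* OX (SE 0.117, adjusted p = 0.0263, edgeR), this fall being −0.16 and not called without WT replicate 1. *AtRH17* had 144 and 124 counts in libraries labelled *AtRH17* OX, against 259 and 242 in WT, a log2 fold change of −0.79 (SE 0.183, adjusted p = 0.0012, edgeR). The study selected its *HRE1β* OX lines by quantitative RT-PCR. By the same method it also reported *HRE1α* and *HRE1β* transcripts as higher in their respective OX seedlings than in WT. Where the transgene transcripts end, and so whether these counts include them, was not tested, and both sets of libraries are named by their label. Leaf and root markers were present in all 8 libraries. The summed level of 6 leaf markers was 17740 to 18494 CPM in *HRE1α* OX, 21555 to 23691 CPM in those labelled *HRE1β* OX, 23482 to 23986 CPM in those labelled *AtRH17* OX, and 13397 to 15101 CPM in WT. The sum of 8 root markers, most of it from *PYK10*, was 2298 to 2339 CPM in *HRE1α* OX, 2366 to 2464 CPM in those labelled *HRE1β* OX, 3956 to 4583 CPM in those labelled *AtRH17* OX, and 2010 to 2217 CPM in WT. Of these 8 genes, 2, 4 and 6 were called higher than in WT in *HRE1α*, *HRE1β* and *AtRH17* OX as labelled, and of the 6 leaf markers 3, 4 and 6. Of all genes, 3.36%, 22.9% and 30.8% were called in either direction in these comparisons. Transcripts of 12 seed markers summed to 28.8 to 99.8 CPM in libraries labelled *HRE1β* OX and to at most 0.995 CPM elsewhere, with *CRA1* and *CRC* at 0 in both WT libraries. In whole seedlings, fewer cells of a type and less RNA per cell cannot be told apart, and the part of these differences in the *JAZ* results was not tested.

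The *JAZ* genes were expressed over a wide range of levels. *JAZ12* together with *JAZ1*, among the first repressors described, gave most of the family's transcripts. Of the summed counts of the 10 genes, *JAZ12* took 32.6% to 43.2% in a library and *JAZ1* 22.4% to 37.7%. *JAZ9* took 7.77% to 13.2%, *JAZ6* 4.67% to 10.2%, *JAZ2* 6.38% to 8.90% and *JAZ3* 3.39% to 6.36%. The remaining genes had few counts. *JAZ10* had 21 to 58 counts in a library, *JAZ7* 3 to 32, *JAZ5* 3 to 28 and *JAZ8* 0 to 6. *JAZ7* and *JAZ8* encode short repressors with a divergent degron that can bind TOPLESS without NINJA. *JAZ8* had 0 and 3 counts in *HRE1α* OX, 2 and 2 in libraries labelled *HRE1β* OX, 4 and 0 in libraries labelled *AtRH17* OX, and 0 and 6 in WT, where 3 counts are 0.0972 to 0.122 CPM. No difference in *JAZ8* was detectable at this depth. It did not pass the filter on low counts, so 9 of the 10 genes were tested. The summed level of the family was 208 ± 0.678 CPM in *HRE1α* OX, 215 ± 12.8 CPM in libraries labelled *HRE1β* OX, 205 ± 12.9 CPM in libraries labelled *AtRH17* OX and 227 ± 0.334 CPM in WT (SD, n = 2 each).

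**Figure D1:**
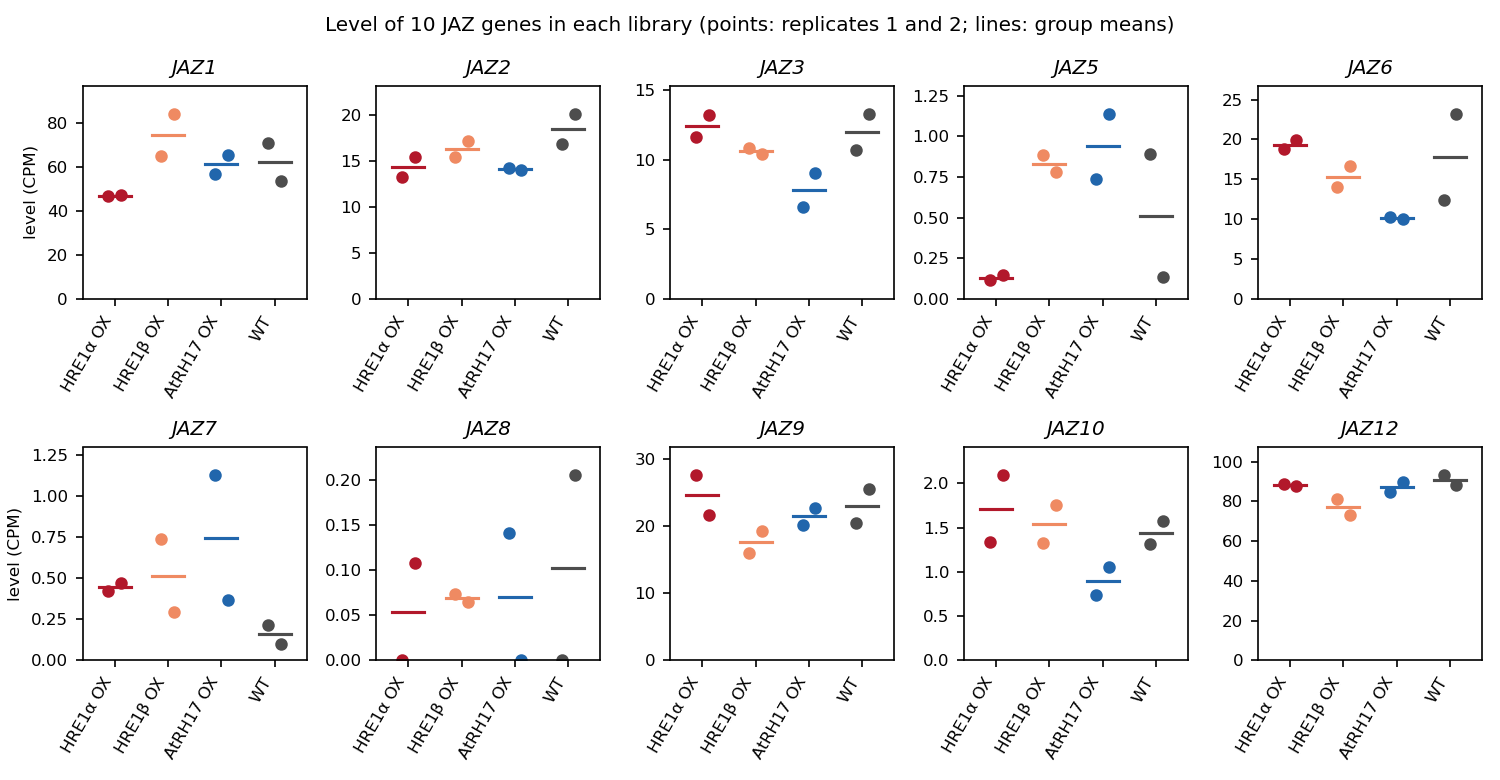
Level of the 10 *JAZ* genes in CPM (vertical axis, starting at 0, a scale of its own for each gene) in each library of *HRE1α* OX, *HRE1β* OX, *AtRH17* OX and WT as labelled. Points are the 2 libraries of a group and lines their mean. *JAZ1* was tightest in *HRE1α* OX (46.7 and 47.2 CPM), and *JAZ6* was widest in WT (12.3 and 23.2 CPM).

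The replicates of a group differed by more than counting error for some of these genes. A binomial test of the counts given the library totals had p under 0.05 for 3 of 10 genes in *HRE1α* OX, 5 of 10 in libraries labelled *HRE1β* OX, 3 of 10 in libraries labelled *AtRH17* OX and 7 of 10 in WT. A chi-square test was run on all genes that passed the filter on low counts and lay above a minimum count in the group. Its p was under 0.05 for 31.7% of them in *HRE1α* OX, 34.4% in libraries labelled *HRE1β* OX, 35.1% in libraries labelled *AtRH17* OX and 44.1% in WT. The 10 *JAZ* genes were not limited in this way, so the 2 sets of shares are not fully alike. *JAZ6* and *JAZ5*, a related pair with a motif of their own for binding TOPLESS, were widest apart in WT. *JAZ6* had 347 counts in WT replicate 1 and 679 in WT replicate 2. *JAZ5* went the other way, with 25 counts in WT replicate 1 and 4 in WT replicate 2. Both genes therefore enter every comparison with WT with 1 high and 1 low WT library.

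The genes lie on 4 chromosomes in the TAIR10.1 assembly, *JAZ1* at chr1:6621777-6623668 and *JAZ12* at chr5:7090704-7092539, both on the forward strand. *JAZ3* (chr3:6119707-6123044), *JAZ7* (chr2:14573030-14573952), *JAZ8* (chr1:10596352-10597341), *JAZ9* (chr1:26654529-26657350) and *JAZ10* (chr5:4218786-4221077) are also on the forward strand. *JAZ2* (chr1:28148574-28150446), *JAZ5* (chr1:5955155-5957511) and *JAZ6* (chr1:27273968-27276562) are on the reverse strand. *JAZ10* has 7 annotated transcripts, which gene counts do not separate. The longest identical run between any 2 of the 10 gene sequences was 20 bases, between *JAZ1* and *JAZ2* and between *JAZ5* and *JAZ6*. *JAZ12* shares 211 bases with a long non-coding RNA gene (AT5G03235) and 28 bases with AT5G20910, both on the opposite strand. Those genes had 21 to 62 and 217 to 248 counts, against 2191 to 2621 for *JAZ12*, and since the use of strand in counting is not stated, reads of the shared bases cannot be told apart. *JAZ10* shares 71 bases with a long non-coding RNA gene (AT5G02045) that had 0 to 1 counts.

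MYC2, MYC3 and MYC4 are known to bind the G-box, CACGTG, and its variant AACGTG, and ERF factors bind the GCC box, GCCGCC. These letters were searched on both strands from 250 bases before to 50 bases after the annotated start of each gene. The G-box was found at 4 of the 10 *JAZ* genes and in 7.68% of 27443 windows of the same length at nuclear protein-coding genes, and AACGTG at 4 of 10 and in 8.95% of all windows. Either of them was found at 7 of 10 genes and in 15.8% of all windows. The GCC box was found at 0 of 10 and in 2.57% of all windows. *JAZ1*, *JAZ9* and *JAZ10* held none of the 3 motifs, which says only that these letters are not in this window. The sequences below show where the G-box stands at the 4 genes that hold it, and the AACGTG match at the related genes *JAZ5* and *JAZ6*, of which *JAZ5* was higher and *JAZ6* lower in libraries labelled *AtRH17* OX than in *HRE1α* OX. They are written on the strand of the gene, from the reference genome, with the motif in capitals.
JAZ2: taaattaaaaCACGTGttttaaatgt
JAZ3: cacgacgatgCACGTGcctttttaac
JAZ7: aagcattttaCACGTGcgtgaagaga
JAZ8: aaacattttcCACGTGagagaattga
JAZ5: gcgtaaggaaAACGTGcggtaaattc
JAZ6: gtgcaatgaaAACGTGccggaacttg
The G-box begins 66 bases before the start at *JAZ2* (chr1:28150497-28150522, reverse strand), 82 bases before it at *JAZ3* (chr3:6119615-6119640), 34 bases before it at *JAZ7* (chr2:14572986-14573011) and 10 bases before it at *JAZ8* (chr1:10596332-10596357), the last 3 on the forward strand. *JAZ3* holds a further G-box 140 bases before its start. The AACGTG match begins 218 bases before the start at *JAZ5* (chr1:5957714-5957739) and 127 bases before it at *JAZ6* (chr1:27276674-27276699), both on the reverse strand.

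In *HRE1α* OX, no *JAZ* gene passed the adjusted threshold against WT. edgeR called 0 of 9 at an adjusted p under 0.05, where 3.36% of all 22602 genes tested were called, and DESeq2 also called 0. At an unadjusted p under 0.05, 3 of the 9 genes passed with either tool, against 14.4% of all genes with edgeR, and all 3 had lower means in *HRE1α* OX. *JAZ1* was at 46.7 and 47.2 CPM in *HRE1α* OX, against 71.1 and 53.9 CPM in WT. Both *HRE1α* OX libraries lay below both WT libraries, as they did for 22.1% of all genes, and the log2 fold change was −0.41 (SE 0.133, adjusted p = 0.126, edgeR). It was called in 4 of 17 alternative settings, among them without WT replicate 2 (−0.60, adjusted p = 0.00053, edgeR). Without that library *JAZ5* (−2.73, adjusted p = 0.0486, edgeR) and *JAZ6* (0.65, adjusted p = 0.0119, edgeR) were called as well. *JAZ2*, the closest relative of *JAZ1*, was at 13.3 and 15.5 CPM in *HRE1α* OX, against 16.9 and 20.2 CPM in WT, again without overlap (log2 fold change −0.36, SE 0.140, adjusted p = 0.197, edgeR). *JAZ5* had 3 and 4 counts in *HRE1α* OX, against 25 and 4 in WT, so the groups met at 4 counts and only 1 WT library was high (log2 fold change −1.94, SE 0.878, adjusted p = 0.297, edgeR). *JAZ7* had 11 and 13 counts in *HRE1α* OX, against 6 and 3 in WT, and its log2 fold change of 1.47 (SE 0.879) had an adjusted p of 0.489 (edgeR). Among the other genes, *JAZ12*, *JAZ9*, *JAZ3* and *JAZ6* had log2 fold changes between −0.04 and 0.12. The median over the 9 genes was 0.05, against −0.01 over all genes tested.

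In libraries labelled *HRE1β* OX, *JAZ9* and *JAZ12* fell slightly against WT. These were 2 of 9 genes tested, where 22.9% of all genes were called and 11.6% were called lower. The 2 of 9 called are near the share of all genes called in either direction. *JAZ9*, a relative of *JAZ3*, was at 16.0 and 19.3 CPM in libraries labelled *HRE1β* OX, against 20.5 and 25.5 CPM in WT, with a log2 fold change of −0.38 (SE 0.140, adjusted p = 0.0476, edgeR). *JAZ12* was at 81.0 and 72.9 CPM in libraries labelled *HRE1β* OX, against 93.2 and 88.5 CPM in WT, with a log2 fold change of −0.24 (SE 0.0866, adjusted p = 0.0440, edgeR). The groups did not overlap for either gene, both libraries lying below both WT libraries as for 29.3% of all genes. Both calls lay just inside the threshold and held in only 6 of 17 alternative settings for *JAZ9* and 5 of 17 for *JAZ12*, and both were lost with DESeq2 (adjusted p = 0.0879 for *JAZ9* and 0.0514 for *JAZ12*). Without WT replicate 2, *JAZ9* was at −0.22 (adjusted p = 0.368, edgeR), and without *HRE1β* OX replicate 1 it was at −0.26 (adjusted p = 0.376, edgeR). Without *HRE1β* OX replicate 2, *JAZ12* was at −0.15 (adjusted p = 0.420, edgeR). *JAZ7* had 20 and 9 counts in these libraries, against 6 and 3 in WT, and was not called (log2 fold change 1.67, SE 0.865, adjusted p = 0.175, edgeR). *JAZ1* was at 65.3 and 84.3 CPM in them, overlapping with WT at 71.1 and 53.9 CPM, and its difference from WT was 0.26 on the log2 scale (SE 0.131, adjusted p = 0.180, edgeR). The median over the 9 genes was −0.18, against 0.00 over all genes tested.

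**Figure D2:**
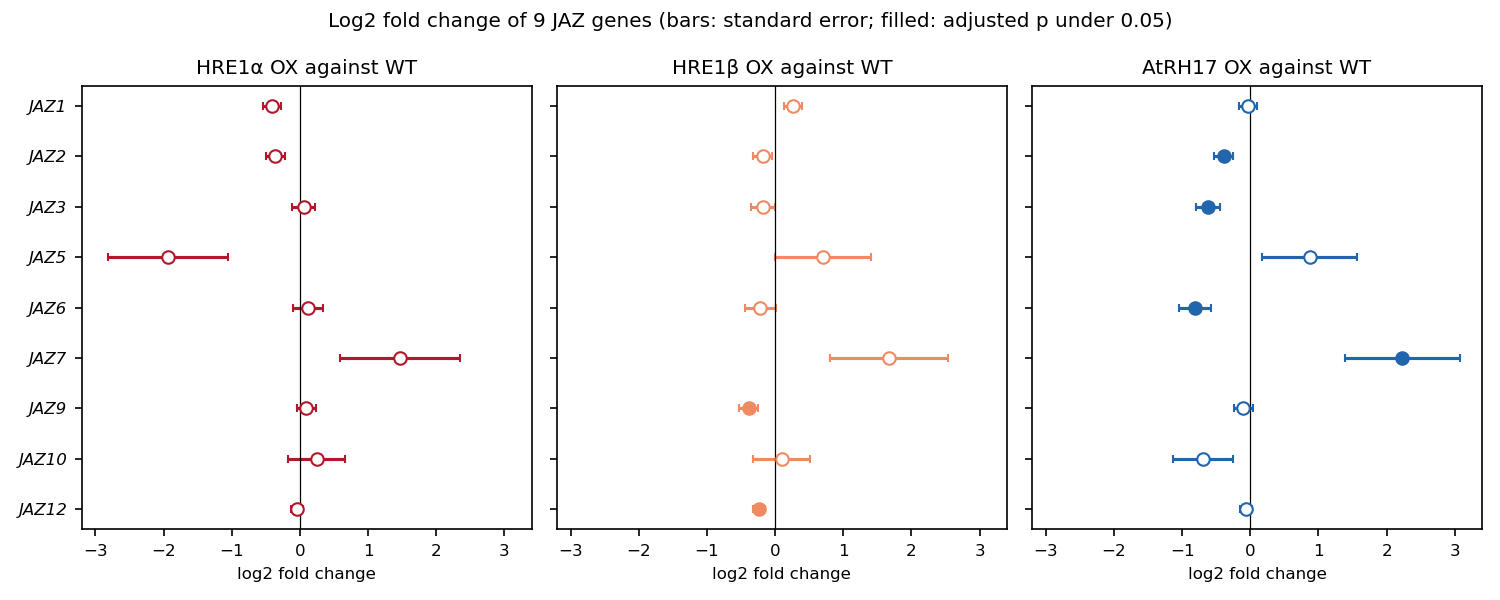
Log2 fold change against WT (horizontal axis) of the 9 *JAZ* genes tested, for *HRE1α* OX, *HRE1β* OX and *AtRH17* OX as labelled. Bars are standard errors and filled points have an adjusted p under 0.05 (edgeR), which holds for 0, 2 and 4 genes. The wide bars belong to *JAZ5*, *JAZ7* and *JAZ10*, the genes with the fewest counts.

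The splicing-variant overexpressors differed from each other in 3 *JAZ* genes, *JAZ1* and *JAZ5* being higher and *JAZ9* lower in libraries labelled *HRE1β* OX. *JAZ1* was at 65.3 and 84.3 CPM in libraries labelled *HRE1β* OX, against 46.7 and 47.2 CPM in *HRE1α* OX. It rose 1.59-fold in libraries labelled *HRE1β* OX relative to *HRE1α* OX (log2 fold change 0.67, SE 0.133, adjusted p = 0.0020, edgeR), and the call held in 16 of 17 alternative settings, among them each omission of a library. *JAZ5* rose as well, with 24 and 24 counts in libraries labelled *HRE1β* OX, against 3 and 4 in *HRE1α* OX (log2 fold change 2.64, SE 0.845, adjusted p = 0.0283, edgeR). Per library total this is a ratio of 6.46 with an exact 95% counting interval of 2.91 to 16.9, and the call was lost when any of these 4 libraries was left out (log2 fold change 2.49 to 2.81). *JAZ9* fell to 16.0 and 19.3 CPM in libraries labelled *HRE1β* OX, against 27.6 and 21.7 CPM in *HRE1α* OX (log2 fold change −0.48, SE 0.140, adjusted p = 0.0164, edgeR). It was at −0.30 without *HRE1α* OX replicate 1 (adjusted p = 0.332, edgeR) and at −0.35 without *HRE1β* OX replicate 1 (adjusted p = 0.235, edgeR). These were 3 of 9 genes tested, where 16.7% of all genes were called, 8.86% higher and 7.87% lower. Seed marker transcripts differed between the same groups (28.8 to 99.8 CPM in libraries labelled *HRE1β* OX, 0.721 to 0.840 CPM in *HRE1α* OX). In addition, 3 of 8 root markers and 3 of 6 leaf markers were called higher. Among the root markers, chosen after their values were seen, were *TIP2-3* (196 and 183 CPM, against 62.8 and 55.8 CPM in *HRE1α* OX) and *AGP30* (53.0 and 40.2 CPM, against 8.94 and 8.61 CPM in *HRE1α* OX). The study reported *AGP30* as upregulated in *HRE1β* OX against WT, also by quantitative RT-PCR. The part of these markers in the *JAZ* differences was not tested.

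In libraries labelled *AtRH17* OX, 4 of 9 genes were called against WT, where 30.8% of all genes were called, 15.3% higher and 15.5% lower. *JAZ2*, *JAZ3* and *JAZ6* fell and *JAZ7* rose. *JAZ3*, known from the *jai3* mutant whose truncated repressor blocks jasmonate responses, was at 6.62 and 9.08 CPM in libraries labelled *AtRH17* OX, against 10.7 and 13.3 CPM in WT. Both *AtRH17* OX libraries were below both WT libraries, as for 31.7% of all genes. Its log2 fold change was −0.62 (SE 0.175, adjusted p = 0.0071, edgeR), a level 0.653 times that of WT. *JAZ6* was at 10.3 and 9.97 CPM in libraries labelled *AtRH17* OX, against 12.3 and 23.2 CPM in WT. The groups did not overlap, and the log2 fold change was −0.81 (SE 0.235, adjusted p = 0.0209, edgeR), but it depended on the WT library it was set against, at −0.28 without WT replicate 2 (adjusted p = 0.251, edgeR) and −1.19 without WT replicate 1 (adjusted p = 4.1e-08, edgeR).

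*JAZ2* was at 14.2 and 14.0 CPM in libraries labelled *AtRH17* OX, against 16.9 and 20.2 CPM in WT (log2 fold change −0.39, SE 0.141, adjusted p = 0.0336, edgeR). Again the groups did not overlap, and this small fall was not called with DESeq2 (adjusted p = 0.0610). *JAZ7* had 32 and 9 counts in libraries labelled *AtRH17* OX, against 6 and 3 in WT (log2 fold change 2.23, SE 0.843, adjusted p = 0.0433, edgeR). Over both libraries the ratio per library total was 4.70, with an exact 95% counting interval of 2.25 to 11.0, and without *AtRH17* OX replicate 1 the log2 fold change was 1.2 (adjusted p = 0.509, edgeR). The excess thus rested mainly on 1 library, and the call held in 5 of 14 alternative settings. No call of the 4 was kept without WT replicate 2, nor without *AtRH17* OX replicate 1, and *JAZ2* and *JAZ6* were also lost without *AtRH17* OX replicate 2 and *JAZ7* without WT replicate 1. *JAZ10*, whose splice forms include repressors that resist degradation, had 21 and 26 counts in libraries labelled *AtRH17* OX, against 37 and 46 in WT, and its log2 fold change of −0.69 (SE 0.442) had an adjusted p of 0.255 (edgeR). *JAZ1*, *JAZ9* and *JAZ12* had log2 fold changes of −0.03, −0.10 and −0.06, and the median over the 9 genes was −0.10, against −0.01 over all genes tested.

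**Figure D3:**
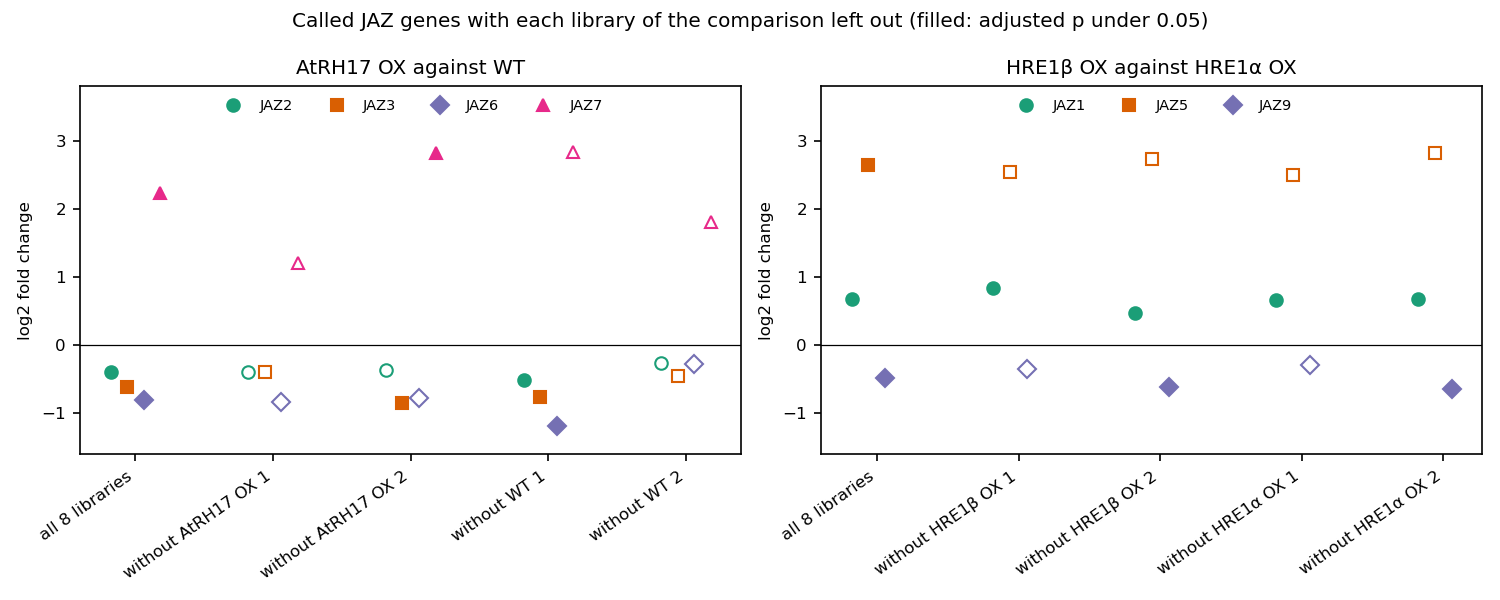
Log2 fold change (vertical axis) of the called *JAZ* genes with all 8 libraries and with each library of the comparison left out in turn, for *AtRH17* OX against WT on the left and *HRE1β* OX against *HRE1α* OX on the right, as labelled. Filled symbols have an adjusted p under 0.05 (edgeR). *JAZ1* stayed filled throughout (0.48 to 0.84), whereas *JAZ2*, *JAZ3*, *JAZ6* and *JAZ7* were all open without WT replicate 2.

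Set against *HRE1α* OX, libraries labelled *AtRH17* OX showed 2 genes higher and 2 lower, 4 of 9 where 25.8% of all genes were called, 13.4% higher and 12.4% lower. *JAZ5* had 21 and 28 counts in libraries labelled *AtRH17* OX, against 3 and 4 in *HRE1α* OX (log2 fold change 2.81, SE 0.843, adjusted p = 0.0131, edgeR), a ratio per library total of 6.80 with an exact 95% counting interval of 3.06 to 17.8. *JAZ1* was at 56.8 and 65.7 CPM in libraries labelled *AtRH17* OX, against 46.7 and 47.2 CPM in *HRE1α* OX (log2 fold change 0.38, SE 0.134, adjusted p = 0.0461, edgeR). In the other direction, *JAZ6* was at 10.3 and 9.97 CPM in libraries labelled *AtRH17* OX, against 18.8 and 19.9 CPM in *HRE1α* OX, without the wide spread that the WT libraries had. Its log2 fold change was −0.93 (SE 0.235, adjusted p = 0.0122, edgeR). *JAZ3* was at 6.62 and 9.08 CPM in libraries labelled *AtRH17* OX, against 11.6 and 13.2 CPM in *HRE1α* OX (log2 fold change −0.67, SE 0.175, adjusted p = 0.0045, edgeR). All 4 calls were lost without *HRE1α* OX replicate 2, where their log2 fold changes were 2.98 for *JAZ5*, 0.39 for *JAZ1*, −0.89 for *JAZ6* and −0.57 for *JAZ3*. *JAZ1* and *JAZ6* were also lost when any other library of these groups was left out, *JAZ5* without *HRE1α* OX replicate 1 or *AtRH17* OX replicate 2, and *JAZ3* without *AtRH17* OX replicate 1 (−0.46). This comparison shares the *HRE1α* OX libraries with the comparison of the splicing variants, where *JAZ1* and *JAZ5* were also higher.

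Between libraries labelled *AtRH17* OX and those labelled *HRE1β* OX, edgeR and DESeq2 called 0 of 9 genes at the adjusted threshold, where 13.9% of all genes were called. At an unadjusted p under 0.05, 4 genes passed with either tool, where 26.7% of all genes did with edgeR. *JAZ6* was at 10.3 and 9.97 CPM in libraries labelled *AtRH17* OX, against 14.0 and 16.6 CPM in those labelled *HRE1β* OX (log2 fold change −0.60, SE 0.237, adjusted p = 0.128, edgeR). *JAZ3* was also lower in libraries labelled *AtRH17* OX and not called (log2 fold change −0.44, SE 0.176, adjusted p = 0.0970, edgeR). *JAZ5* and *JAZ7* had 49 and 41 counts over libraries labelled *AtRH17* OX, and 48 and 29 over those labelled *HRE1β* OX.

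The members did not move as 1 block over the 8 libraries. Of the 36 pairs of the 9 genes tested, 14 had a positive Pearson correlation of log2 CPM. *JAZ3* followed *JAZ10* (r = 0.89) and *JAZ6* (r = 0.85), *JAZ6* followed *JAZ10* (r = 0.79), and *JAZ1* followed *JAZ5* (r = 0.81). *JAZ5* and *JAZ6* ran against each other (r = −0.85), as did *JAZ2* and *JAZ7* (r = −0.73). These are descriptions over 8 libraries that share their groups and scaling, and *JAZ5* and *JAZ7* rest on few counts. The mean standardized level of the 9 genes was lowest in *AtRH17* OX replicate 1 (−0.50) and highest in WT replicate 2 (0.33). Among 22593 other genes, *PUB8*, a U-box protein gene, was most like this mean (r = 0.97). Next came AT3G19950 (r = 0.97), *PRA1.F1* (r = 0.96), AT4G01335 (r = 0.96) and *T9A14.8* (r = 0.96). They were picked as the highest of 22593 correlations over 8 libraries, so their high r is partly a product of that selection. A link to the *JAZ* genes was not tested.

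Around the repressors, transcripts of the receptor were lower in 2 of the overexpressors. *COI1* was at 57.1 and 53.3 CPM in *HRE1α* OX, 47.8 and 46.8 CPM in libraries labelled *HRE1β* OX, 47.5 and 40.0 CPM in libraries labelled *AtRH17* OX, and 70.0 and 65.4 CPM in WT. It fell in libraries labelled *HRE1β* OX (log2 fold change −0.52, SE 0.0972, adjusted p = 0.00016, edgeR) and in those labelled *AtRH17* OX (−0.63, SE 0.0978, adjusted p = 7.7e-06, edgeR), and was at −0.29 in *HRE1α* OX (adjusted p = 0.0996, edgeR). Of the 7 receptor and corepressor genes tested, 5 fell in libraries labelled *AtRH17* OX and 0 rose, where 15.5% of all genes were called lower and 15.3% higher. Beside *COI1* these were *TPL*, which encodes TOPLESS (−0.51), the histone deacetylase gene *HDA19* (−0.38), the Mediator subunit gene *MED25* (−0.67, not called without *AtRH17* OX replicate 2) and the adaptor gene *NINJA* (−0.29). *NINJA* was at 28.3 and 26.9 CPM in libraries labelled *AtRH17* OX, against 33.9 and 33.5 CPM in WT, and its call (adjusted p = 0.0380, edgeR) was lost in 11 of 16 alternatives. The median over these 7 genes was −0.38 in libraries labelled *AtRH17* OX, against −0.01 over all genes tested.

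Of the MYC activators, *MYC2* did not pass the test in any overexpressor (log2 fold changes 0.07, 0.03 and 0.11 in *HRE1α*, *HRE1β* and *AtRH17* OX as labelled, adjusted p = 0.833, 0.892 and 0.442, edgeR). *MYC3* fell to 28.8 and 25.2 CPM in libraries labelled *HRE1β* OX and 24.7 and 23.0 CPM in those labelled *AtRH17* OX, against 37.5 and 38.8 CPM in WT (log2 fold changes −0.50 and −0.68, adjusted p = 0.00098 and 1.75e-05, edgeR). Without *HRE1β* OX replicate 2 it was at −0.39 and not called. *MYC4* fell in libraries labelled *AtRH17* OX (32.3 and 33.0 CPM, against 46.2 and 42.2 CPM in WT). Of the 6 genes of the MYC activators and the related JAM repressors that were tested, 0 rose in any comparison with WT, and 0, 1 and 2 fell in *HRE1α*, *HRE1β* and *AtRH17* OX as labelled. Of all genes, 11.6% were called lower in libraries labelled *HRE1β* OX and 15.5% in those labelled *AtRH17* OX.

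Targets of the pathway moved both ways. In the MYC branch, 1, 2 and 2 genes rose in *HRE1α*, *HRE1β* and *AtRH17* OX as labelled, and 0, 0 and 1 fell. Of all genes, 3.36%, 22.9% and 30.8% were called in either direction. Of 5 tested genes of the MYC branch, *CLH1*, a chlorophyllase gene induced by coronatine, rose in all 3 overexpressors (log2 fold changes 0.65, 0.87 and 0.89 in *HRE1α*, *HRE1β* and *AtRH17* OX as labelled), although not past the threshold in *HRE1α* OX when either of its libraries was left out (adjusted p = 0.0552 and 0.0561, edgeR). *CORI3*, another coronatine-induced gene, was at 8.50 and 7.52 CPM in libraries labelled *HRE1β* OX and 23.2 and 17.8 CPM in those labelled *AtRH17* OX, against 4.12 and 1.71 CPM in WT. It rose 2.75-fold and 7.06-fold (adjusted p = 0.0030 and 5.3e-06, edgeR). *ANAC019*, a NAC factor gene downstream of MYC2, had 0 and 1 counts in libraries labelled *AtRH17* OX, against 24 and 28 in WT, a ratio per library total of 0.0198 with an exact 95% counting interval of 0.000493 to 0.115. The vegetative storage protein gene *VSP1*, a standard MYC-branch marker, had 21 to 54 counts in a library and did not pass in any comparison with WT. It was chosen for mention after its values were seen.

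In the ERF branch, driven by ERF1 and ORA59, 6 genes were tested. Of these, 2, 2 and 1 rose in *HRE1α*, *HRE1β* and *AtRH17* OX as labelled, and 1, 0 and 1 fell. The shares of all genes called in either direction were 3.36%, 22.9% and 30.8%. The plant defensin genes *PDF1.2* and *PDF1.3* were near 0 in WT and present in both *HRE1* overexpressors. *PDF1.2* had 12 and 22 counts in *HRE1α* OX, 7 and 45 in libraries labelled *HRE1β* OX, 0 and 1 in those labelled *AtRH17* OX, and 0 and 0 in WT. Against a floor of 3 counts over both WT libraries, it was at least 12-fold higher in *HRE1α* OX (adjusted p = 0.0124, edgeR) and at least 17.3-fold higher in libraries labelled *HRE1β* OX (adjusted p = 0.00084, edgeR). *PDF1.3* had 28 and 23 counts in *HRE1α* OX, 21 and 39 in libraries labelled *HRE1β* OX, 10 and 3 in those labelled *AtRH17* OX, and 1 and 3 in WT. Both calls in *HRE1α* OX were lost without WT replicate 1 or either *HRE1α* OX library, and that of *PDF1.2* in libraries labelled *HRE1β* OX without their replicate 2. The near-identical copies of these defensin genes can share reads, so their counts are uncertain. *PR3*, a basic chitinase gene, rose 1.78-fold in libraries labelled *AtRH17* OX (85.9 and 107 CPM, against 62.4 and 46.3 CPM in WT) and fell in *HRE1α* OX (37.4 and 39.8 CPM, adjusted p = 0.0275, edgeR), this last call being lost without WT replicate 1 (log2 fold change −0.26) or either *HRE1α* OX library. *ORA59* fell in libraries labelled *AtRH17* OX (log2 fold change −0.96, SE 0.288, adjusted p = 0.0132, edgeR), where it was at −0.55 without *AtRH17* OX replicate 2 (adjusted p = 0.220, edgeR).

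**Figure D4:**
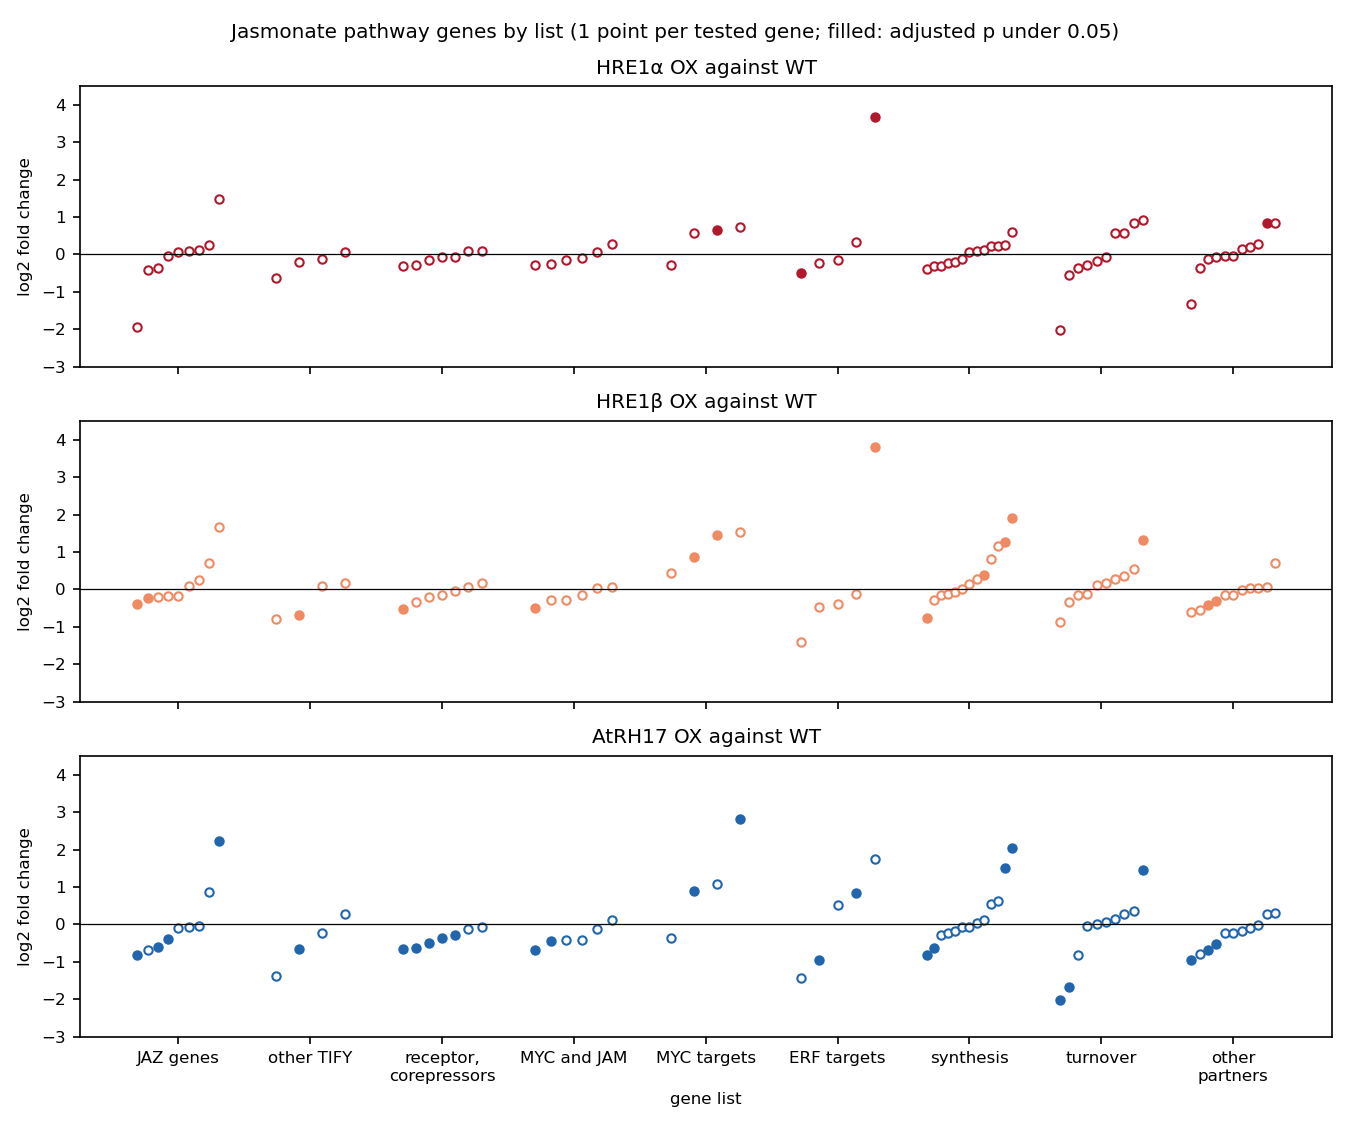
Log2 fold change against WT (vertical axis) of each tested gene, grouped by list from the *JAZ* genes to other JAZ partners (horizontal axis) and sorted by value within a list, for *HRE1α* OX, *HRE1β* OX and *AtRH17* OX as labelled. Filled points have an adjusted p under 0.05 (edgeR). *PDF1.2*, at 0 in WT, and *ANAC019*, at 0 and 1 counts in *AtRH17* OX, are not drawn. In the receptor and corepressor list, 5 of 7 points are filled and below 0 for *AtRH17* OX.

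Genes of jasmonate synthesis and turnover also went in both directions. *LOX2*, the main chloroplast lipoxygenase gene of the pathway, was at 10.9 and 7.52 CPM in libraries labelled *HRE1β* OX and 10.9 and 9.24 CPM in those labelled *AtRH17* OX, against 3.41 and 1.50 CPM in WT (log2 fold changes 1.91 and 2.04, adjusted p = 5.2e-05 and 1.5e-05, edgeR). The allene oxide cyclase gene *AOC2* rose in the same libraries (1.26 and 1.50), whereas *LOX6* fell in those labelled *HRE1β* OX (−0.77) and *AOC1* in those labelled *AtRH17* OX (−0.82, but −0.54 without *AtRH17* OX replicate 2 and −0.62 without WT replicate 2, neither called). In all, of 13 synthesis genes tested, 0 rose and 0 fell in *HRE1α* OX (2 passed at an unadjusted p under 0.05, edgeR), 3 rose and 1 fell in libraries labelled *HRE1β* OX, and 2 rose and 2 fell in those labelled *AtRH17* OX. Of all genes, 3.36%, 22.9% and 30.8% were called in these comparisons, so the 4 of 13 called in libraries labelled *AtRH17* OX are near the share of all genes. Of 10 turnover genes tested, 0, 1 and 1 rose in *HRE1α*, *HRE1β* and *AtRH17* OX as labelled, and 0, 0 and 2 fell. *CYP94B3*, which encodes a hydroxylase that inactivates jasmonoyl-isoleucine, rose in libraries labelled *HRE1β* OX (4.32 and 4.47 CPM) and *AtRH17* OX (4.61 and 4.96 CPM), against 1.88 and 1.61 CPM in WT. *ST2A*, a sulfotransferase gene acting on hydroxylated jasmonate, fell to 21.0 and 24.6 CPM in libraries labelled *AtRH17* OX, against 88.0 and 58.0 CPM in WT (log2 fold change −1.68, SE 0.274, adjusted p = 0.0067, edgeR), and its adjusted p was 0.0616 without *AtRH17* OX replicate 1. *CYP94C1*, the next enzyme after CYP94B3, fell there as well, with 7 and 2 counts in libraries labelled *AtRH17* OX, against 18 and 22 in WT (log2 fold change −2.02, SE 0.764, adjusted p = 0.0433, edgeR), a call lost in 10 of 15 alternatives.

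Of 11 tested genes for other proteins known to bind JAZ repressors, 1 rose in *HRE1α* OX, 2 fell in libraries labelled *HRE1β* OX and 3 fell in those labelled *AtRH17* OX. Of all genes, 3.36%, 22.9% and 30.8% were called in these comparisons, 11.6% being lower in libraries labelled *HRE1β* OX and 15.5% in those labelled *AtRH17* OX. The 2 and 3 of 11 called in libraries labelled *HRE1β* and *AtRH17* OX are near the shares called in either direction. The DELLA gene *GAI* was at 21.6 and 23.6 CPM in libraries labelled *AtRH17* OX, against 43.0 and 44.1 CPM in WT (log2 fold change −0.95, SE 0.105, adjusted p = 2.4e-08, edgeR). The ethylene-signalling genes *EIN3* and *EIL1* fell in libraries labelled *HRE1β* OX (−0.30 and −0.40, both lost without *HRE1β* OX replicate 1) and in those labelled *AtRH17* OX (−0.51 and −0.69). *TOE1*, a flowering repressor gene, rose in *HRE1α* OX to 41.1 and 42.4 CPM, against 22.0 and 24.8 CPM in WT (log2 fold change 0.84, SE 0.122, adjusted p = 3.7e-05, edgeR). *PPD2*, a TIFY relative of the JAZ genes that limits leaf growth, was at 37.5 and 35.2 CPM in libraries labelled *HRE1β* OX and 36.2 and 37.0 CPM in those labelled *AtRH17* OX, against 59.5 and 56.2 CPM in WT, and fell in both (−0.67 and −0.66). Among 10 genes that respond early to touch and wounding, *ZAT12* rose in libraries labelled *HRE1β* OX and *AtRH17* OX (log2 fold changes 1.77 and 1.70), and the calmodulin-like gene *TCH3* fell in *HRE1α*, *HRE1β* and *AtRH17* OX as labelled (−0.43, −0.60 and −0.52). The call of *TCH3* in *HRE1α* OX was lost whichever library of that comparison was left out. In all, 0, 2 and 3 of the 10 genes rose in *HRE1α*, *HRE1β* and *AtRH17* OX as labelled, and 1, 1 and 1 fell. *TCH2*, another calmodulin-like gene, rose in libraries labelled *HRE1β* OX (0.32, not called without their replicate 2 or without WT replicate 2), and *WRKY33*, a defence regulator gene, in those labelled *AtRH17* OX (0.63).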

How the data were processed

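The study made 3′ mRNA libraries (QuantSeq) from whole seedlings. Per the labels and the methods, the authors aligned the reads to TAIR10 with Bowtie2, assigned unique and multiple alignments to genes with Bedtools coverage, and deposited whole-number counts per gene without normalization. Tool versions and the use of strand are not given in the sources used here.

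Of 33028 gene rows, 32557 were assigned to 1 TAIR10.1 locus and 471 were not. *PPD1*, *TPR1*, *ANAC055* and *MYB75* were not analysed here. The 8 libraries were fitted together with edgeR 4.0.16 (filterByExpr, TMM, robust quasi-likelihood F test, Benjamini-Hochberg adjustment over 22602 genes, call at 0.05) in R 4.3.3. The SE of a log2 fold change was taken from its size and its F statistic (size over root F). p-values measure the spread between these libraries, which may be technical, and intervals cover counting error only.

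The members, lists and tests were chosen with earlier results of these data known. Named genes were all members, HRE1 and AtRH17, up to 3 called genes with the largest change per list and comparison with WT, *COI1*, *NINJA*, *MYC2*, *MYC3*, *MYC4*, and the 5 genes most correlated with the members. *HDA19* and *VSP1* were chosen after their values were seen. Alternatives were DESeq2 1.42.0, upper-quartile factors, quantile normalization with an equal-variance test (log2 scale, pseudocount 1 CPM), no count filter, at least 10 counts per library, fits of 2 groups, fits without the *AtRH17* OX libraries, no organelle genes, a replicate block, and each library left out. Figures were drawn with matplotlib 3.10.9.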

Additional observations from a re-analysis of the deposited data

How the results depend on the processing

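The 13 *JAZ* calls were recomputed in 209 alternatives, of which 136 kept the call, 73 did not and 0 changed its direction. With DESeq2, 0 *JAZ* genes were called for *HRE1β* OX against WT and 2 for *AtRH17* OX against WT. Upper-quartile factors and a fit without the *AtRH17* OX libraries also gave 0 for *HRE1β* OX against WT. A fit of only the groups compared gave 0 there, 2 for *AtRH17* OX against WT and 1 for *AtRH17* OX against *HRE1β* OX. Without a filter, 1 was called for *HRE1α* OX against WT and 2 for *AtRH17* OX against *HRE1β* OX. Quantile normalization with an equal-variance test, the approach nearest to that of the study, called 0 *JAZ* genes at an adjusted p under 0.05 in all 6 comparisons and, of all genes, 0 for *HRE1α* OX against WT, 1 for *HRE1β* OX against WT, 1 for *AtRH17* OX against WT, 1 for *HRE1β* OX against *HRE1α* OX, 0 for *AtRH17* OX against *HRE1α* OX and 0 for *AtRH17* OX against *HRE1β* OX. At the threshold of the study, 2-fold and an unadjusted p under 0.05, it gave 46, 462, 691, 272, 508 and 170 genes in the same order, with 0 *JAZ* genes among them. This setting adds 1 CPM before the log, and the group means of *JAZ5* and *JAZ7* all lay below 1 CPM. A 2-fold change was thus all but out of reach for both, and the 0 says nothing about them. With it, the log2 fold change of *JAZ5* was 0.61 in *HRE1β* OX against *HRE1α* OX. That of *JAZ7* was 0.48 in *AtRH17* OX against WT. Why the settings differed otherwise was not tested.

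With 1 library left out, the *JAZ* genes called numbered 0 to 3 for *HRE1α* OX against WT, 0 to 3 for *HRE1β* OX against WT, 0 to 4 for *AtRH17* OX against WT, 1 to 3 for *HRE1β* OX against *HRE1α* OX, 0 to 4 for *AtRH17* OX against *HRE1α* OX and 0 to 2 for *AtRH17* OX against *HRE1β* OX. The genes called among all tested numbered 262 to 1468 (760 with all libraries), 3353 to 5039 (5167), 4920 to 6756 (6958), 1900 to 4732 (3781), 3516 to 6751 (5837) and 1157 to 4274 (3135) in the same order. A group with 1 library left is assumed to vary like the others.

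No pairing by replicate number was visible, as deviations of same-numbered libraries correlated at −0.01 to 0.04 between groups. Whether same-numbered libraries were handled together is not given in the sources used here. With the replicate number as a block, 1 *JAZ* gene was called for *AtRH17* OX against *HRE1β* OX (*JAZ6*, adjusted p = 0.0351, edgeR), and *JAZ1* in *AtRH17* OX against *HRE1α* OX was no longer called (adjusted p = 0.0748, edgeR). With 2 libraries a group and few counts for *JAZ5*, *JAZ7*, *JAZ8* and *JAZ10*, depth limits what can be seen of these genes. In windows of only the upstream bases, 6.49% of the promoters of nuclear protein-coding genes held the G-box, 7.54% AACGTG, 13.3% either and 1.87% the GCC box.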
